A study of Mus musculus with 18 samples.

Results

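The genes of cholesterol and fatty acid synthesis were followed through STAC3 knockdown and the first day of differentiation in C2C12 cells, a mouse line of muscle precursor cells that differentiates in medium with little serum. A list of 32 genes was looked up by symbol in the authors' normalized table, and 28 were found there, of 13032 named genes in the table. They comprise 15 enzymes of sterol synthesis, 5 regulators or carriers of sterols and 8 genes of fatty acid synthesis, elongation or desaturation. Hmgcs1, Fdft1, Acat2 and Acaca were not analysed here. Each gene was represented by its probe with the highest mean over all arrays, and all 28 passed the filter on detection.

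The RNA samples, 15 in all, were hybridised to Illumina mouse bead arrays. At day 0, 24 h after transfection and in growth medium with 20% FBS, there were 4 samples with an RNAi against STAC3 and 3 samples with a high-GC control RNAi. At day 1, 48 h after transfection and in differentiation medium with 2% FBS, there were 4 samples of each kind. All groups were transfected C2C12 cells, 1 line was used, the control was a different RNAi and not untreated cells, and a single RNAi against STAC3 is named. Between the days the medium and the time since transfection change together, so that their effects cannot be told apart. Whether the replicates are separate transfections is not in the labels, and the spread behind each p-value is therefore that between the arrayed samples, which may be technical. In bulk RNA, fewer cells of a type and less RNA per cell cannot be told apart.

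Values are log2 intensities as normalized by the authors, and differences are on that log2 scale. A gene is said to have risen or fallen where the adjusted p of limma's moderated test, with Benjamini-Hochberg adjustment over all 18408 probes tested, lay below 0.05. Between 15146 and 16802 probes were detected per array. The detection level of the normalized values was 6.88. Stac3, whose product works with the voltage sensor of excitation-contraction coupling in skeletal muscle, read 6.70, 6.68, 6.79 and 6.75 in STAC3 RNAi samples at day 0 against 7.04, 6.98 and 7.15 in control samples. At day 1 it read 6.74, 6.74, 6.70 and 6.81 in STAC3 RNAi samples against 7.53, 7.69, 7.52 and 7.97 in control samples. All STAC3 RNAi samples were below the detection level, so the transcript was at least 1.13-fold lower at day 0 (limma adjusted p = 0.0214) and at least 1.74-fold lower at day 1 (limma adjusted p = 6.03e-07). The myoblast markers Myod1, Des, Cdh15 and Vcam1 were above the detection level in all 15 samples, whereas Myf5 was below it in all 15. Adipoq, a defining adipocyte gene, and Ttr, the only 1 of 4 listed hepatocyte genes that was found, were below it in all 15 samples too. By detection p, Adipoq was detected on 2 of 18 arrays and Ttr and Myf5 on 1 each. The adipocyte markers Pparg and Lpl, by contrast, were detected on all 18 arrays, with means of 9.25 and 9.18, and Cebpa on 8 arrays. All 5 listed fibroblast markers were detected on all 18 arrays too, with means from 7.08 (Col1a2) to 10.05 (Dcn).

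Cells build cholesterol from acetyl-CoA through mevalonate, the isoprenoid farnesyl diphosphate, squalene and lanosterol. When membrane sterol is low, the SREBP transcription factors leave the endoplasmic reticulum with their escort SCAP, are cut in the Golgi and switch on these genes together. When sterol is high, the INSIG proteins hold SCAP and SREBP back. The same factors, chiefly the SREBF1 product, act on the genes of fatty acid synthesis and desaturation, which supply the membranes of growing and fusing muscle cells.

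Promoters are shown for some of the sterol genes, which moved together between the days. Whether promoter sequence has a part in that was not tested. Promoter sequences from RefSeq, build GRCm38.p6, were held for 22 of the 28 genes and searched on both strands for CCAAT, the site named for the factor NF-Y, and for TCACNCCAC, a form of the sterol regulatory element. Overlapping matches on opposite strands were each counted. CCAAT occurred in 13 of 16 promoters of sterol enzymes (81.2%), in 5 of 8 of the regulators and carriers (62.5%), in 3 of 5 of the fatty acid genes (60.0%) and in 12289 of all 32851 promoters of the same length (37.4%). TCACNCCAC occurred in 0 of the 29 promoters of these genes and in 408 of all promoters (1.24%). A match is a match of letters, and a window without one holds no statement about a factor. In the stretches below, written 5′ to 3′ on the strand of the gene, capitals mark CCAAT or its reverse complement ATTGG. Insig2 has 3 promoters in the table, of which the stretch shown, the farthest upstream, is the only one with a match, and the other 2 hold 0 CCAAT. Hsd17b7 and Insig2 differed between STAC3 RNAi and control on both days, and Mvd had the largest difference upward. Nsdhl and Msmo1, which act with Hsd17b7 in sterol synthesis, rose between the days. Of the other genes that differed between STAC3 RNAi and control, Sc5d has 1 CCAAT in its promoter and is not shown. Matches and rises did not go together throughout. Mvk, with 5 CCAAT, rose between the days in STAC3 RNAi cells only, and Ebp, with 2, passed in neither kind of cell. Cyp51, with 1, rose in both. No promoter was held for Fdps, Fads1 and Scd1.
Hsd17b7 (chr1:169969193-169969390, minus strand): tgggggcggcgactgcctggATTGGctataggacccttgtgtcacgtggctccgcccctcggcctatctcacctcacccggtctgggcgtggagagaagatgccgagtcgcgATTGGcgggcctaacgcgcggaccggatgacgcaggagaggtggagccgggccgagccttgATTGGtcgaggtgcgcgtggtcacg
Insig2 (chr1:121332594-121332745, minus strand): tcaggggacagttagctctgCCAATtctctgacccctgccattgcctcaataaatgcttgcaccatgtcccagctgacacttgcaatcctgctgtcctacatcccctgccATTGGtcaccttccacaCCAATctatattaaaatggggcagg
Mvd (chr8:122443425-122443502, minus strand): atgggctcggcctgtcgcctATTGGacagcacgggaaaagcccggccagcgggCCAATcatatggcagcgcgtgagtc
Nsdhl (chrX:72918392-72918570, plus strand): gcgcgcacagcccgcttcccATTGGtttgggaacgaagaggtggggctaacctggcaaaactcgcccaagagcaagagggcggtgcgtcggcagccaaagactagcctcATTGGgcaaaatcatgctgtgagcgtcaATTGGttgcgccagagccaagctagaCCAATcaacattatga
Msmo1 (chr8:64733609-64733758, minus strand): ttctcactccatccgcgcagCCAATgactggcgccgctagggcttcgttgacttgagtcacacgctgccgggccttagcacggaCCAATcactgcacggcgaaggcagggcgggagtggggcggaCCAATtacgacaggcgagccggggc

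Between day 0 and day 1 most of the pathway rose, in STAC3 RNAi cells and in control cells alike. In STAC3 RNAi cells 14 of 15 sterol enzymes, 4 of 5 regulators and carriers and 7 of 8 fatty acid genes rose, and none fell. In control cells 10 of 15 sterol enzymes, 4 of 5 regulators and carriers and 6 of 8 fatty acid genes rose, and none fell. Over all probes tested, 41.4% were called in STAC3 RNAi cells (20.7% up and 20.8% down) and 35.8% in control cells (17.7% up and 18.1% down). The median change of the sterol enzymes was 0.88 in STAC3 RNAi cells and 0.64 in control cells, and that of the fatty acid genes was 0.58 in STAC3 RNAi cells and 0.42 in control cells. The median over all probes was 0.00 in STAC3 RNAi cells and -0.00 in control cells. For 20 of the 28 genes the day 1 values and the day 0 values did not overlap in STAC3 RNAi cells, all with day 1 higher, against 37.6% of all probes (18.7% higher and 19% lower). In control cells that count was also 20, against 41.1% of all probes (20.1% higher and 21% lower). The replicate numbers were taken to pair the control samples of the days, on weak correlations of their deviations (0.13, 0.21 and 0.23). With the number as a block 10 sterol enzymes, 3 regulators and carriers and 4 fatty acid genes rose in control cells. The day comparisons and the comparisons of RNAi with control use the same samples.

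**Figure D1:**
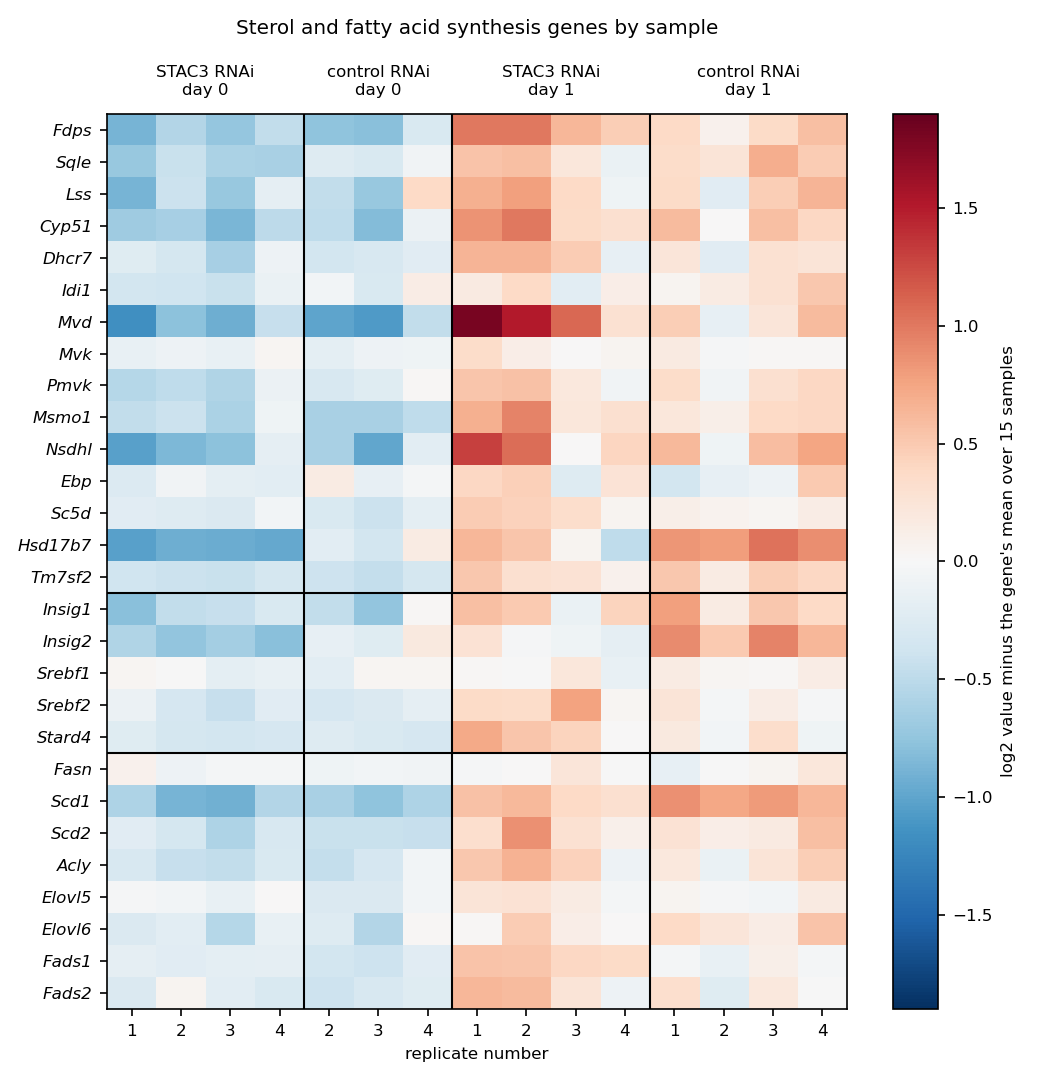
Each row is 1 of the 28 genes, grouped from the top into sterol enzymes, regulators and carriers, and fatty acid genes, and each column is 1 of the 15 samples. Colour gives the log2 value minus that gene's mean over the 15 samples, and nearly all rows are redder in both day 1 groups than in the day 0 groups, with Mvd in STAC3 RNAi replicate 1 of day 1 the darkest cell.

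Among the enzymes before squalene, Mvd, which decarboxylates mevalonate diphosphate, rose most. In STAC3 RNAi cells Mvd read 10.95, 10.66, 10.24 and 9.44 at day 1 against 7.99, 8.37, 8.22 and 8.72 at day 0. In control cells it read 9.61, 8.99, 9.37 and 9.74 at day 1 against 8.15, 8.06 and 8.69 at day 0. The days did not overlap in either kind of cell, and the spread at day 1 was wider in STAC3 RNAi cells (SD 0.66, n = 4) than in control cells (SD 0.33, n = 4). The change was 2.00 (SE 0.27, limma adjusted p = 1.73e-05) in STAC3 RNAi cells and 1.13 (SE 0.29, limma adjusted p = 0.00553) in control cells. Fdps, which makes farnesyl diphosphate, read 13.90, 13.89, 13.53 and 13.36 at day 1 against 12.02, 12.34, 12.16 and 12.43 at day 0 in STAC3 RNAi cells. In control cells Fdps read 13.28, 12.97, 13.26 and 13.47 at day 1 against 12.13, 12.10 and 12.60 at day 0. Again no day 1 sample fell within the day 0 range, and the changes were 1.43 (SE 0.15) in STAC3 RNAi cells and 0.97 (SE 0.16) in control cells. The kinases Pmvk and Mvk and the isomerase Idi1 changed less. Pmvk rose by 0.73 in STAC3 RNAi cells and by 0.41 in control cells, where the adjusted p was 0.0493, stayed below 0.05 in 6 of 15 fits that each left out 1 sample, and was 0.0827 with the replicate block. Mvk rose by 0.22 and Idi1 by 0.43 in STAC3 RNAi cells, while in control cells their differences were 0.17 (limma adjusted p = 0.101) and 0.32 (limma adjusted p = 0.0804). With the replicate block Idi1 passed in control cells (0.34, limma adjusted p = 0.0306).

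Of the enzymes from squalene onward, Sqle, the squalene epoxidase and a rate-controlling step, read 12.45, 12.47, 12.12 and 11.78 at day 1 against 11.20, 11.49, 11.31 and 11.30 at day 0 in STAC3 RNAi cells. In control cells it read 12.26, 12.15, 12.60 and 12.39 at day 1 against 11.66, 11.61 and 11.84 at day 0. Each set of day 1 samples lay above its day 0 samples, by 0.88 (SE 0.13) in STAC3 RNAi cells and 0.64 (SE 0.15) in control cells. Lanosterol synthase, Lss, rose by 0.99 in STAC3 RNAi cells, and its difference in control cells was 0.58 (SE 0.27, limma adjusted p = 0.103). In control cells the Lss value of replicate 4 at day 0 was 10.08, against 9.24 and 8.98 in the other day 0 samples. Without that sample the difference in control cells was 0.91 and passed (limma adjusted p = 0.0124). Cyp51, the lanosterol demethylase, rose by 1.30 in STAC3 RNAi cells and by 0.87 in control cells. Msmo1 and Nsdhl, which remove the C4 methyl groups of sterols with Hsd17b7, rose by 0.92 and 1.40 in STAC3 RNAi cells and by 0.84 and 1.07 in control cells. The Nsdhl rise in control cells was not called without control replicate 3 of day 0 (0.87, limma adjusted p = 0.0601). Hsd17b7, whose product reduces the 3-keto group in the same step, rose by 1.14 (SE 0.18) in STAC3 RNAi cells and by 1.02 (SE 0.19) in control cells. The reductase Tm7sf2 rose by 0.68 in STAC3 RNAi cells and by 0.77 in control cells, but 3 of 4 STAC3 RNAi samples and 2 of 3 control samples at day 0 were below the detection level. Sc5d, the lathosterol desaturase, rose by 0.52 in STAC3 RNAi cells and 0.38 in control cells. Dhcr7, the last reductase, rose by 0.73 in STAC3 RNAi cells, and in control cells its difference was 0.43 (limma adjusted p = 0.0725). Ebp, the sterol isomerase, did not pass in either: 0.39 (95% interval 0.04 to 0.74, limma adjusted p = 0.0672) in STAC3 RNAi cells and -0.02 (95% interval -0.39 to 0.36) in control cells.

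Among the regulators, both INSIG genes rose with the day. Insig1 read 9.30, 9.23, 8.61 and 9.16 at day 1 against 7.93, 8.27, 8.30 and 8.44 at day 0 in STAC3 RNAi cells. In control cells Insig1 read 9.51, 8.89, 9.24 and 9.11 at day 1 against 8.27, 7.98 and 8.75 at day 0. The days did not overlap in either, and the rises were 0.84 (SE 0.18) in STAC3 RNAi cells and 0.86 (SE 0.19) in control cells. The other probes of Insig1 did not all follow, since 1 of them differed by 0.02 (limma adjusted p = 0.933) in STAC3 RNAi cells and by -0.23 (limma adjusted p = 0.325) in control cells. Insig2 rose by 0.69 (SE 0.12) in STAC3 RNAi cells and by 0.81 (SE 0.13) in control cells. Srebf2, which encodes the SREBP that acts chiefly on sterol genes, read 9.16, 9.15, 9.56 and 8.83 at day 1 against 8.68, 8.47, 8.36 and 8.58 at day 0 in STAC3 RNAi cells. In control cells Srebf2 read 9.03, 8.76, 8.94 and 8.77 at day 1 against 8.47, 8.52 and 8.61 at day 0. It rose by 0.65 (SE 0.12) in STAC3 RNAi cells and by 0.34 in control cells, where the adjusted p was 0.0487, stayed below 0.05 in 3 of 15 fits that each left out 1 sample, and was 0.0778 with the replicate block. A second Srebf2 probe differed by 0.03 in STAC3 RNAi cells and by -0.02 in control cells, and passed in neither. Stard4, a cytosolic sterol carrier, rose by 0.72 in STAC3 RNAi cells and by 0.39 in control cells, the second of these in 10 of 15 such fits. Srebf1 read 7.31, 7.28, 7.51 and 7.15 at day 1 against 7.34, 7.28, 7.10 and 7.15 at day 0 in STAC3 RNAi cells. In control cells Srebf1 read 7.45, 7.33, 7.31 and 7.43 at day 1 against 7.09, 7.32 and 7.33 at day 0. The days overlapped in both, and the 95% intervals of the difference were -0.08 to 0.27 in STAC3 RNAi cells and -0.05 to 0.32 in control cells.

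**Figure D2:**
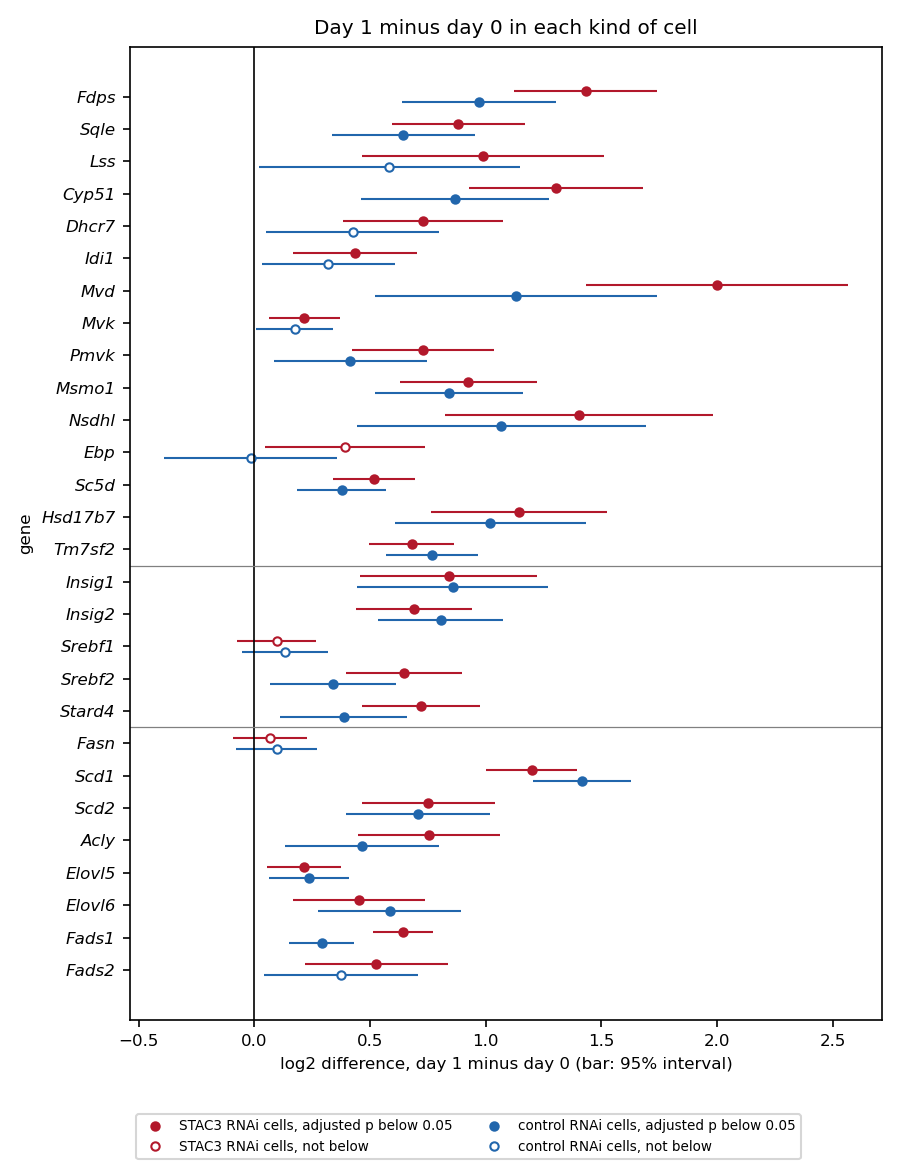
Points give the log2 difference, day 1 minus day 0, of each of the 28 genes in STAC3 RNAi cells (red) and control RNAi cells (blue), and bars are 95% intervals. Filled points have an adjusted p below 0.05, 25 in STAC3 RNAi cells and 20 in control cells, and horizontal lines separate sterol enzymes, regulators and carriers, and fatty acid genes.

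In the fatty acid branch the desaturase Scd1, which makes oleic and palmitoleic acid, rose most. It read 12.43, 12.50, 12.26 and 12.19 at day 1 against 11.29, 11.004, 10.96 and 11.33 at day 0 in STAC3 RNAi cells. In control cells Scd1 read 12.75, 12.62, 12.68 and 12.51 at day 1 against 11.26, 11.12 and 11.29 at day 0. The days were far apart in both, with a change of 1.20 (SE 0.09, limma adjusted p = 5.16e-08) in STAC3 RNAi cells and of 1.42 (SE 0.10, limma adjusted p = 3.9e-08) in control cells. Scd2, a second such desaturase of mouse, rose by 0.75 in STAC3 RNAi cells and 0.71 in control cells. Acly, which makes cytosolic acetyl-CoA from citrate, rose by 0.76 in STAC3 RNAi cells and by 0.46 in control cells. The Acly rise in control cells passed in 10 of 15 fits that left out 1 sample and not with the replicate block (limma adjusted p = 0.0573). The elongases changed by less. Elovl6, which extends palmitate, rose by 0.45 in STAC3 RNAi cells and 0.59 in control cells, and Elovl5, which extends polyunsaturated acids, by 0.21 in STAC3 RNAi cells and 0.24 in control cells. With 1 sample left out, Elovl6 passed in 13 of 15 fits in STAC3 RNAi cells, and Elovl5 in 9 of 15 in STAC3 RNAi cells and 11 of 15 in control cells. With the replicate block Elovl5 did not pass in control cells (limma adjusted p = 0.0585). Fads1, the delta-5 desaturase of polyunsaturated acids, rose by 0.64 (SE 0.06) in STAC3 RNAi cells and by 0.29 (SE 0.07) in control cells. Fads2, the delta-6 desaturase, rose by 0.53 in STAC3 RNAi cells, and its difference in control cells was 0.37 (limma adjusted p = 0.0774).

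Fasn, the fatty acid synthase, lay at the edge of detection. It read 6.88, 6.91, 7.13 and 6.89 at day 1 against 6.99, 6.82, 6.87 and 6.87 at day 0 in STAC3 RNAi cells. In control cells it read 6.75, 6.90, 6.96 and 7.12 at day 1 against 6.82, 6.86 and 6.83 at day 0. The groups overlapped, 8 of the 15 values were below the detection level, and no comparison of Fasn passed, so this probe allows no statement on the gene.

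The rise was not the same size in all samples of a group. The mean of the 15 sterol enzymes, each centred on its own mean, lay between 0.09 and 0.70 in the STAC3 RNAi samples of day 1, with a median of 0.47, and between 0.04 and 0.46 in the control samples of day 1, with a median of 0.35. STAC3 RNAi replicate 4 was the lowest of its day 1 group for 10 of 15 sterol enzymes and 7 of 8 fatty acid genes, and control replicate 2 was the lowest of its day 1 group for 12 of 15 sterol enzymes. At day 0 STAC3 RNAi replicate 4 was the highest of its group for 12 of 15 sterol enzymes, and control replicate 4 was so for 14 of 15. These replicate 4 samples were the only ones of their day 0 groups with an array of lower background (lowest intensity 33.3 and 35.2). The part of the arrays in this was not tested. By these ranks the genes shift together within a group, and counts over them are not counts of independent events. In the same samples the 5 markers of differentiating muscle (Myog, Ckm, Tnnt1, Mylpf and Actn3) had mean values of 8.48 to 9.32 in STAC3 RNAi samples of day 1 and 10.26 to 11.31 in control samples of day 1. Their part in the spread of the sterol genes was not tested.

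Set against control RNAi on the same day, Hsd17b7 and Insig2 were lower with STAC3 RNAi on both days. At day 0, 2 of 28 genes fell (Hsd17b7 and Insig2) and none rose, against 12.5% of all probes called (6.7% up and 5.79% down). At day 1, 4 of 28 rose (Mvd, Fdps, Sc5d and Fads1) and 3 fell (Hsd17b7, Insig2 and Scd1), against 33.1% of all probes called (16.8% up and 16.2% down). Without STAC3 RNAi replicate 4 of day 1 the count at day 1 was 11 of 28, against 32.1% of all probes. Taken without direction, the count does not set these genes apart from the array. The genes gained in that fit (Dhcr7, Srebf2, Stard4, Acly and Fads2) were all upward, and Scd1, downward before, was lost. Of all 18408 probes 3021 rose and 2897 fell in that fit. The fit without control replicate 2 of day 1 went the other way. There Mvd, Fdps and Sc5d, all upward, were lost (limma adjusted p = 0.057, 0.112 and 0.0836). No gene was gained in it, against 29.7% of all probes called. Each of these 2 samples was the lowest of its day 1 group for most sterol enzymes (10 and 12 of 15). The median difference of the sterol enzymes was -0.11 at day 0 and 0.23 at day 1, that of the regulators and carriers -0.03 and -0.07, that of the fatty acid genes 0.06 and 0.11, and that of all probes 0.01 on both days. The markers of differentiating muscle fell at day 1 in 5 of 5 cases, with a median of -2.03, and 1 of 5 fell at day 0.

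Hsd17b7 was the sterol enzyme that was lower on both days. It read 9.41, 9.50, 9.49 and 9.47 in STAC3 RNAi samples at day 0 against 10.23, 10.08 and 10.59 in control samples. At day 1 it read 11.06, 10.96, 10.49 and 9.95 in STAC3 RNAi samples against 11.27, 11.22, 11.47 and 11.31 in control samples. The groups did not overlap on either day. Over all probes the groups did not overlap for 27.1% at day 0 (14% higher and 13.1% lower) and for 28.2% at day 1 (14.5% higher and 13.7% lower). Hsd17b7 fell by 0.83 at day 0 (SE 0.19, limma adjusted p = 0.0102) and by 0.70 at day 1 (SE 0.18, limma adjusted p = 0.00652). The call at day 0 was lost without control replicate 4 of that day (-0.69, limma adjusted p = 0.0634), whereas the call at day 1 was kept in each of 15 fits that left out 1 sample.

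Insig2, one of the INSIG anchors of SCAP, read 9.21, 9.04, 9.14 and 8.995 in STAC3 RNAi samples at day 0 against 9.64, 9.57 and 9.98 in control samples. At day 1 it read 10.07, 9.77, 9.70 and 9.61 in STAC3 RNAi samples against 10.69, 10.28, 10.73 and 10.42 in control samples. No STAC3 RNAi sample reached the control range on either day. The fall was 0.63 at day 0 (difference -0.63, SE 0.13, limma adjusted p = 0.00395) and 0.74 at day 1 (difference -0.74, SE 0.12, limma adjusted p = 0.000164). A second Insig2 probe fell by 0.64 at day 0 and by 0.85 at day 1 (limma adjusted p = 3.39e-05 and 2.26e-07). Both calls were kept in each of 15 fits that left out 1 sample.
The paralogue Insig1 did not pass on either day by its brightest probe, with a difference of -0.10 at day 0 (95% interval -0.51 to 0.32) and of -0.11 at day 1 (95% interval -0.49 to 0.27). Another Insig1 probe, the one that did not rise with the day, fell by 0.67 at day 0 (limma adjusted p = 0.0131) and by 0.43 at day 1 (limma adjusted p = 0.0414), so the probes of this gene disagree. Srebf2 differed by 0.30 at day 1 (limma adjusted p = 0.0665) by its brightest probe, and a second Srebf2 probe differed by -0.05 (limma adjusted p = 0.705). Stard4 differed by 0.32 at day 1 (limma adjusted p = 0.0512), while Srebf1 differed by -0.07 (95% interval -0.24 to 0.11).

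Mvd, Fdps and Sc5d were the sterol enzymes that were higher with STAC3 RNAi at day 1. From the values above, Mvd averaged 10.32 ± 0.66 in STAC3 RNAi samples and 9.43 ± 0.33 in control samples (SD, n = 4 each), and replicate 4 of the STAC3 RNAi samples lay within the control range. The difference was 0.89 (SE 0.27, limma adjusted p = 0.0167), with a difference of 0.02 at day 0 (95% interval -0.59 to 0.63). Fdps averaged 13.67 ± 0.27 in STAC3 RNAi samples and 13.25 ± 0.21 in control samples (SD, n = 4 each), again with STAC3 RNAi replicate 4 inside the control range. It rose by 0.42 (SE 0.15, limma adjusted p = 0.0347), and a second Fdps probe rose by 0.22 (limma adjusted p = 0.0185). Sc5d read 7.94, 7.90, 7.79 and 7.51 in STAC3 RNAi samples against 7.57, 7.52, 7.51 and 7.60 in control samples, a difference of 0.23 (SE 0.08, limma adjusted p = 0.0413). These calls are near the threshold, and none of them held with only the day 1 groups in the fit (limma adjusted p = 0.0503 for Mvd, 0.0521 for Fdps and 0.0837 for Sc5d). Mvd was not called without control replicate 2 (0.75, adjusted p = 0.057), STAC3 RNAi replicate 1 (0.68, adjusted p = 0.0579) or STAC3 RNAi replicate 2 (0.78, adjusted p = 0.0558) of day 1. Fdps passed in 10 and Sc5d in 5 of 15 fits that each left out 1 sample, with adjusted p up to 0.112 and 0.127. Without STAC3 RNAi replicate 4 of day 1, which was low for most sterol genes, Mvd differed by 1.19. Dhcr7 (0.46), Srebf2 (0.41), Stard4 (0.46), Acly (0.34) and Fads2 (0.43) then passed as well, all upward, each by its brightest probe.

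**Figure D3:**
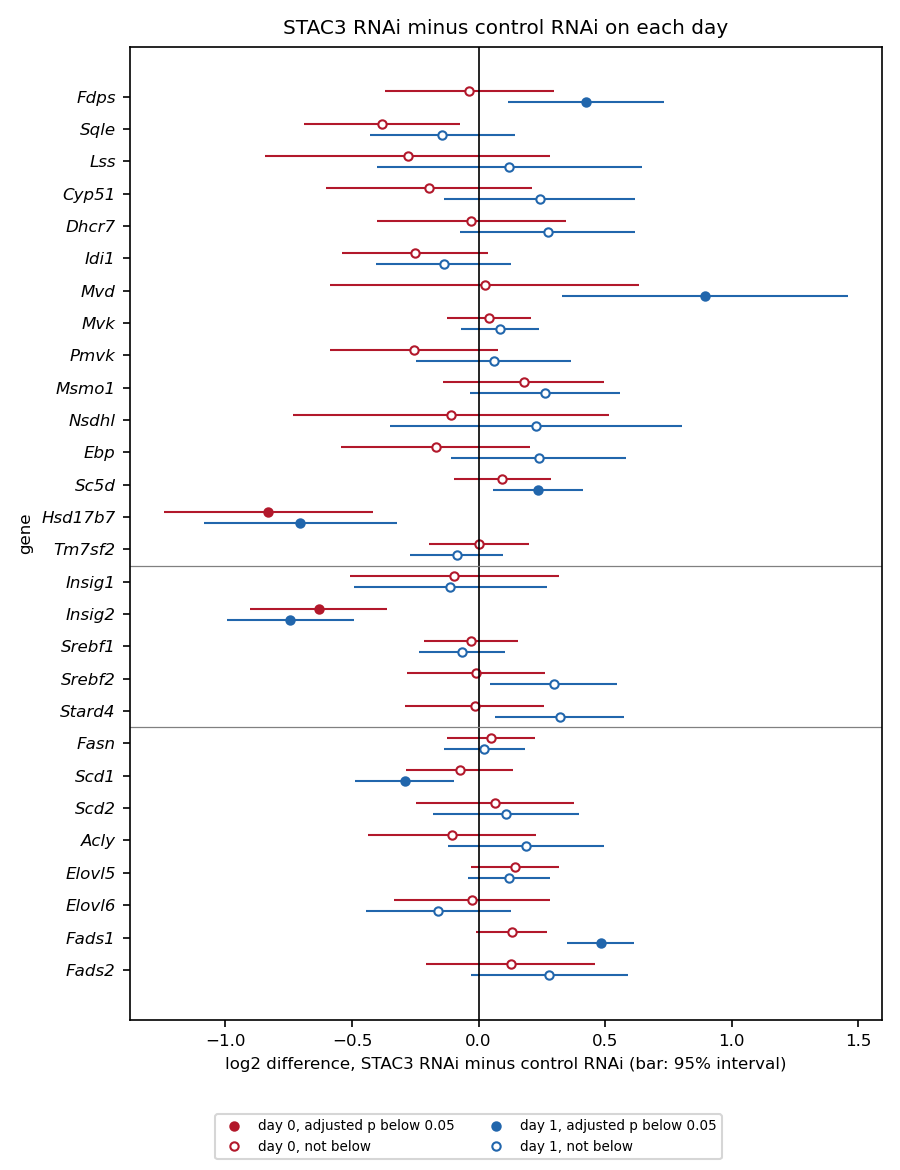
Points give the log2 difference, STAC3 RNAi minus control RNAi, of each of the 28 genes at day 0 (red) and day 1 (blue), and bars are 95% intervals. Filled points have an adjusted p below 0.05, which are Hsd17b7 and Insig2 below 0 on both days and, at day 1, Mvd, Fdps, Sc5d and Fads1 above 0 and Scd1 below 0.

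Sqle, the remaining control point, stood at 11.32 ± 0.12 in STAC3 RNAi samples (SD, n = 4) and 11.71 ± 0.12 in control samples (SD, n = 3) at day 0. No STAC3 RNAi sample reached the control range, but the difference of -0.38 (SE 0.15) did not pass with the spread of all 4 groups (limma adjusted p = 0.104). With only the day 0 groups in the fit it passed (limma adjusted p = 0.0106). At day 1 the difference was -0.14 (95% interval -0.43 to 0.14), and the groups overlapped. A second Sqle probe differed by -0.32 at day 0 (limma adjusted p = 0.42) and by -0.29 at day 1 (limma adjusted p = 0.333), with the spread of all 4 groups.

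In the fatty acid branch 2 of 8 genes passed with STAC3 RNAi at day 1, the desaturases Fads1, upward, and Scd1, downward. Fads1 read 12.78, 12.76, 12.63 and 12.61 in STAC3 RNAi samples at day 1 against 12.20, 12.10, 12.35 and 12.20 in control samples. At day 0 it read 12.07, 12.02, 12.06 and 12.07 in STAC3 RNAi samples against 11.89, 11.85 and 12.03 in control samples. The day 1 groups did not overlap and the day 0 groups overlapped. Fads1 rose by 0.48 at day 1 (SE 0.06, limma adjusted p = 2.41e-05) and differed by 0.13 at day 0 (95% interval -0.01 to 0.27). Its day 1 call was kept in each of 15 fits that left out 1 sample. Scd1 fell by 0.29 at day 1 (SE 0.09, limma adjusted p = 0.0233), with 12.35 ± 0.15 in STAC3 RNAi samples and 12.64 ± 0.10 in control samples (SD, n = 4 each) and no overlap. The Scd1 call was lost without control replicate 1 (-0.26, adjusted p = 0.0647), control replicate 3 (-0.28, adjusted p = 0.0562), STAC3 RNAi replicate 3 (-0.26, adjusted p = 0.0594) or STAC3 RNAi replicate 4 (-0.24, adjusted p = 0.0687) of day 1, and within the 12 arrays of higher background (-0.18, adjusted p = 0.202). Scd2, Acly, Elovl5, Elovl6, Fads2 and Fasn did not pass on either day, with differences between -0.16 and 0.28.

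**Figure D4:**
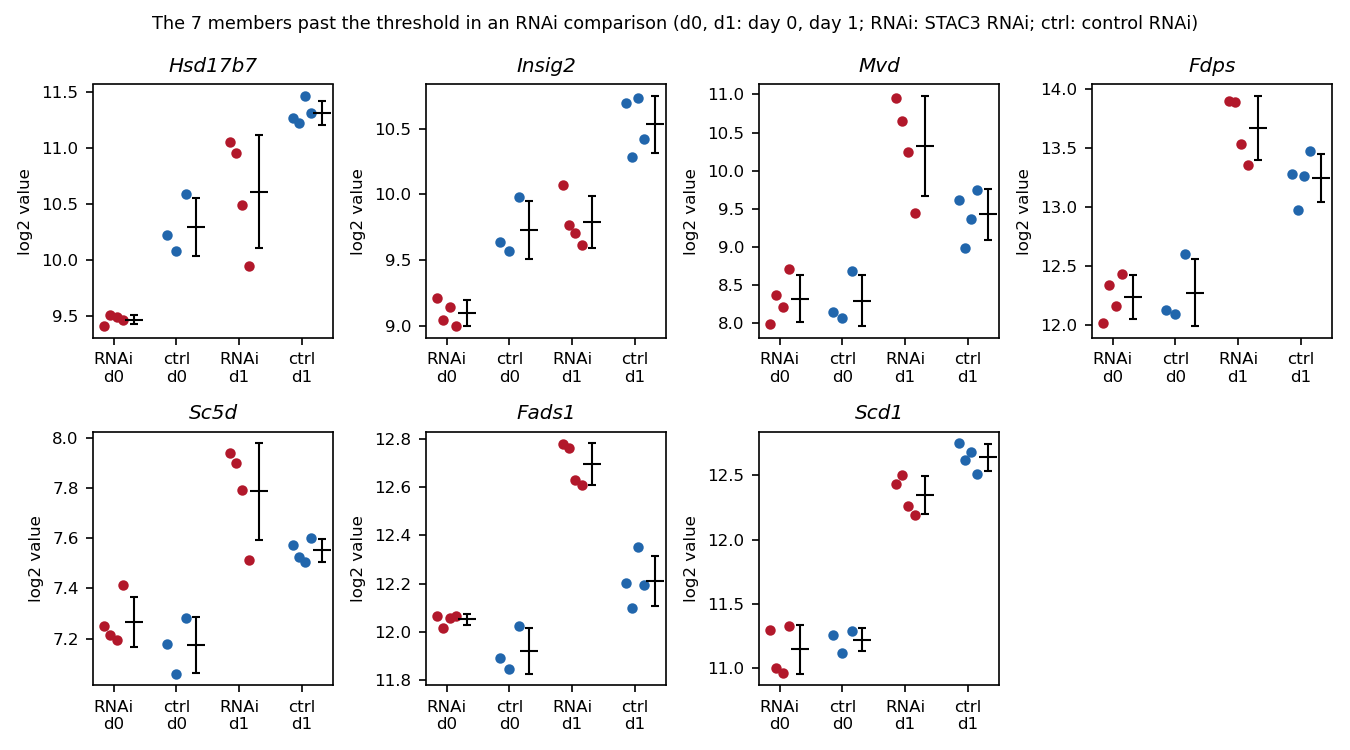
Points are single samples of the 7 genes past the threshold in a comparison of STAC3 RNAi (red) with control RNAi (blue), with the log2 value on the vertical axis, and crosses with bars give mean and SD. For Hsd17b7 and Insig2 the STAC3 RNAi samples lie below the control samples on both days, and for Mvd, Fdps and Sc5d the groups overlap at day 1.

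Whether the effect of the RNAi itself differed between the days was tested as the difference of the 2 differences, which mixes medium with time since transfection. Of the 28 genes 1 passed, Fads1 with 0.35 (SE 0.09, limma adjusted p = 0.0373), against 4.7% of all probes (2.23% up and 2.47% down). The Fads1 call held in 3 of 15 fits that each left out 1 sample, and was lost within the 12 arrays of higher background (0.38, limma adjusted p = 0.0547). The estimate was above 0 for 14 of 15 sterol enzymes, with a median of 0.30, and the largest was Mvd with 0.87 (95% interval 0.04 to 1.70, limma adjusted p = 0.237). Without STAC3 RNAi replicate 4 of day 1 the Mvd estimate was 1.16 (limma adjusted p = 0.0328) and that of Stard4 was 0.47 (limma adjusted p = 0.0483). For Hsd17b7 the estimate was 0.13 (95% interval -0.44 to 0.69) and for Insig2 -0.11 (95% interval -0.48 to 0.25). None of the 5 genes that passed between the days in STAC3 RNAi cells and not in control cells (Lss, Dhcr7, Idi1, Mvk and Fads2) passed this test, so that for them a difference between the cells is not shown.

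In all, 6 arrays, including 3 repeat arrays, had a lower background in the deposited intensities (lowest intensity 32.1 to 36.0) than the other 12 (44.0 to 52.1), and the labels do not say what sets them apart. Within the 12 arrays Hsd17b7 fell by 0.82 at day 0 (adjusted p = 0.0253) and by 0.69 at day 1 (adjusted p = 0.0308), and Insig2 fell by 0.59 (adjusted p = 0.00723) and 0.70 (adjusted p = 0.000955). Fads1 rose by 0.50 at day 1 there (adjusted p = 0.000257) and Mvd by 0.98 (adjusted p = 0.0283). Fdps (0.53, adjusted p = 0.0536), Sc5d (0.20, adjusted p = 0.107) and Scd1 (-0.18, adjusted p = 0.202) did not pass within them. Within the 6 arrays, which hold 1 or 2 samples a group, the same genes had the same direction, and Mvd (1.11), Insig2 at day 1 (-0.77) and Scd1 (-0.44) passed.

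Further lists of the pathway gave the surroundings of these genes at day 1. Of 9 tested genes of sterol uptake, lysosomal export and SREBP processing, 2 rose and 2 fell with STAC3 RNAi, against 16.8% up and 16.2% down over all probes. The lysosomal cholesterol exporter Npc1 fell by 0.51 (SE 0.09), the sterol scaffold Erg28 fell by 0.50 (SE 0.12), and Scap, the SREBP escort, rose by 0.27 (SE 0.08). Of 7 genes of sterol storage, efflux and oxysterol response, 1 rose and 2 fell, against the same shares of all probes. Nceh1, a hydrolase of cholesteryl esters, fell by 1.43 (SE 0.09), with 9.87, 9.87, 9.59 and 9.49 in STAC3 RNAi samples against 11.26, 11.04, 11.16 and 11.06 in control samples. The groups were more than a log2 unit apart at day 1, and Nceh1 fell by 0.95 at day 0. Osbpl8, an oxysterol binding protein relative, fell by 0.35, and the lipoprotein Apoe rose by 0.17 close to the detection level. Of 19 other genes of fatty acid and lipid synthesis, 2 rose and 8 fell, against 16.8% up and 16.2% down over all probes. Hacd1, a dehydratase of very long chain fatty acids that is known from muscle, fell by 1.23 (SE 0.10), the elongase Elovl1 by 0.89 (SE 0.07), and Dgat2, which makes triglyceride, by 0.72 (SE 0.10). For Hacd1 the difference between the days also passed (-0.76, limma adjusted p = 0.00679), as it did for Dgat2 (-0.56, limma adjusted p = 0.0381).
Between the days, 4 of 9, 5 of 7 and 7 of 19 genes of these lists rose in STAC3 RNAi cells and 3 of 9, 3 of 7 and 8 of 19 in control cells, with 1 of 9 and 1 of 19 falling in each. Over all probes 20.7% rose in STAC3 RNAi cells and 17.7% in control cells. Markers of other cell types did not all move one way at day 1. Of 3 tested adipocyte markers Lpl, a lipase also made by muscle, rose by 1.07 and the others did not pass, and of 5 fibroblast markers Pdgfra (0.93) and Dcn (0.76) rose and Col3a1 fell by 0.27. The part of these markers in the lipid genes was not tested.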

How the data were processed

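RNA of 15 C2C12 samples was measured on 18 Illumina bead arrays, 3 of them repeats that were averaged with their sample. The deposited normalized table holds log2 intensities made by the authors with lumi, per the submitters' processing notes, and no version of it and no normalization step is given in the sources used here. A second deposited table holds non-normalized intensity values and detection p-values per the file headers, but by rank its columns fit the normalized column of the same name for 6 of 18 arrays and one of another name for 12. Its intensities by column name therefore served only as an alternative, and its detection p-values to count arrays, which no exchange of names can change, and, on the 6 arrays, to set the detection level. In all, 18 columns of bead standard errors were not used.

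Probes with a detection p below 0.01 on at least 3 arrays (18408 of 24538) entered one limma model (limma 3.58.1, R 4.3.3) of all 15 samples, with a mean per group and Benjamini-Hochberg adjustment over all probes. Of all probes, 20685 have 1 gene symbol, 8 several and 3845 none. The normalized medians of the arrays were equal (7.19), and the number of arrays limits the precision. Genes named with values are those called in a comparison of RNAi with control with a log2 difference of at least 0.5, and Sqle, Insig1, Srebf1, Srebf2, Fasn and Scd1, and for the other lists the 3 with the smallest p at day 1; others are named where a count of a branch is spelled out. The members and lists were chosen with earlier results of these data known. Replicate numbers were checked as pairs: the correlations of the deviations of same-numbered samples were 0.13, 0.21 and 0.23 between the days in control cells, which were taken as paired there, and ran from -0.20 to 0.49 in the other comparisons, where not all passed 0.1. Between STAC3 RNAi and control they were 0.08, 0.20 and 0.49 at day 0, where the same number was the best match each time. At day 1 they were 0.39, -0.05, 0.24 and 0.37. Whether the numbers pair those samples too is not settled. The numbers come from the labels, which do not say what they share. Figures were drawn with matplotlib 3.10.9 in Python 3.11.15.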

Additional observations from a re-analysis of the deposited data

Results flagged for a closer look

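Of 84 groups of 4 samples, each 1 gene in 1 group, 2 held a sample far from the others, where chance alone marks about 1 in 20. Dhcr7 in control replicate 2 of day 1 stood at 7.88, and the nearest of its group was 8.33. Fasn in STAC3 RNAi replicate 3 of day 1 stood at 7.13, and the nearest was 6.91, in a group with a value below the detection level. The effect of STAC3 RNAi on Fads1 differed between the days by 0.35 (limma adjusted p = 0.0373), with higher values in STAC3 RNAi samples by 0.48 at day 1 and by 0.13 at day 0.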

How the results depend on the processing

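The columns of the non-normalized table fit the normalized column of the same name for only 6 of 18 arrays. By correlation, the partners of the 3 repeat arrays ranked 12, 4 and 17 in it by name. In the normalized table each partner ranked 1. With the non-normalized table read by column name, Hsd17b7 (0.32), Insig2 (0.025) and Scd1 (0.15) at day 1, and Elovl5 (-0.031) and Elovl6 (-0.030) between the days in control cells, changed sign. That table then called 0 sterol enzymes, 0 regulators and 0 fatty acid genes in both comparisons with control and in control cells between the days, and 3, 1 and 1 between the days in STAC3 RNAi cells. Over all probes limma called 0 there at day 0, at day 1, between the days in control cells and for the difference of effects, with 960, 470, 126 and 1024 at an unadjusted p below 0.05, and 589 between the days in STAC3 RNAi cells.

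Within the 6 arrays of low background the counts were 0 sterol enzymes and 0 regulators at day 0, 1 sterol enzyme and 1 fatty acid gene at day 1, 2, 1 and 1 (sterol enzymes, regulators, fatty acid genes) between the days in control cells, 8 sterol enzymes and 4 fatty acid genes in STAC3 RNAi cells, and 0 fatty acid genes for the difference of effects. With background correction, an alternative chosen after seeing the data, they were 0 and 0, 1, 0 and 0, 2, 0 and 1, 7 and 3, and 0. Over all probes these gave 9 and 0 calls at day 0, 1929 and 1369 at day 1, 2108 and 1480 in control cells, 3003 and 2379 in STAC3 RNAi cells, and 0 for the difference of effects (1358 and 1125 at an unadjusted p below 0.05), against 2298, 6090, 6599, 7628 and 865 in all arrays. Within the 12 arrays 2 sterol enzymes and 1 fatty acid gene were called at day 1 and 0 fatty acid genes for the difference of effects. That last count was also 0 with quantile normalization and with a trended, robust variance prior. With only the groups compared, 2 sterol enzymes were called at day 0 and 1 at day 1.

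Regulators and carriers called at day 1 were 2 with detection on every array, with the mean over probes, with the trended prior and with the replicate number as a block, and 3 with the array set as a block. With the replicate block, 1 sterol enzyme was called at day 0, 3 at day 1, 10 between the days in control cells and 15 in STAC3 RNAi cells. Between the days in control cells 3 regulators and 4 fatty acid genes passed with the block, against 4 and 6 without it. Among single genes the block also ended the call of Sc5d at day 1 (adjusted p = 0.0512). It added Stard4 at day 1 (0.0229) and Ebp between the days in STAC3 RNAi cells (0.0499). In these comparisons the numbers were not taken as pairs. The block changed no other call than those of Sc5d, Stard4 and Ebp and the 5 given for control cells. With the mean over probes of a gene, 1584, 3976, 4176, 4720 and 683 of 10146 genes were called in the same 5 comparisons. Leaving out 1 sample gave 0 to 2 sterol enzymes at day 0, 1 to 5 at day 1, 8 to 12 in control cells between the days, 13 to 15 in STAC3 RNAi cells and 0 to 1 for the difference of effects. For the regulators the ranges were 1 to 1, 1 to 3, 2 to 4, 4 to 4 and 0 to 1, and for the fatty acid genes 0 to 0, 1 to 3, 4 to 7, 5 to 7 and 0 to 1. Over all probes they were 1480 (without control replicate 4 of day 0) to 2565 at day 0 and 453 (without control replicate 3 of day 0) to 1084 for the difference of effects. The cause of these changes was not tested. Probes near the detection level, such as those of Fasn and of Tm7sf2 at day 0, limit what can be seen of those genes.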
